A study of Rattus norvegicus with 6 samples.

Results

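The aminoacyl-tRNA synthetases described here are 36 genes, chosen by name from the 34170 genes of the deposited expression table. They comprise 20 cytosolic enzymes and 16 mitochondrial enzymes with symbols that end in 2, and each was found on 1 row under its listed symbol. The retinas came from male Sprague-Dawley rats of an outbred stock, housed under the same conditions and injected into the abdomen on 5 days. The 3 diabetic rats had received streptozotocin, a toxin of pancreatic beta cells, which make insulin, at 60 mg/kg after a 12 h fast. The 3 control rats, labelled WT, had received citrate buffer alone. Rats counted as diabetic above 16.7 mmol/L fasting blood glucose 1 week after the last injection, so the model is one of insulin loss caused by a toxin, and neither group carried an engineered allele. The sources used here give neither the age of the rats nor the day of collection. The labels give each library a body weight of its own, and libraries are numbered as in the labels.

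Each synthetase attaches 1 amino acid to its matching tRNAs, and the charged tRNA then carries that amino acid to the ribosome. Most amino acids are served by separate genes for the cytosol and for mitochondria, while Gars and Kars supply both compartments and Eprs encodes a fused glutamyl and prolyl enzyme. In animal cells 8 of these cytosolic genes encode enzymes held in the multisynthetase complex by the scaffold proteins Aimp1, Aimp2 and Eef1e1. Uncharged tRNA activates the kinase GCN2, which phosphorylates the initiation factor eIF2, and this favours translation of the transcription factor ATF4. Several cytosolic synthetase genes are known ATF4 targets in mammalian cells.

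In diabetic retina a set of cytosolic synthetase messenger RNAs was higher than in control retina, and no mitochondrial one reached the same unadjusted threshold. Of the 20 cytosolic genes, 10 were higher at an unadjusted p below 0.05 (Tars, Cars, Iars, Mars, Aars, Yars, Gars, Nars, Eprs and Lars), with fold changes between 1.21 and 1.75, and 1 was lower (Farsa). At this unadjusted threshold 9.15% of the 16363 genes tested were higher and 10.7% were lower, together 19.9%. Of the 15 mitochondrial genes tested, 0 were higher and 0 were lower. No synthetase passed the adjusted threshold of 0.05 over all genes in limma, where 0 genes were called (0% of the genes tested) and the smallest adjusted p was 0.127. All differences below are therefore differences that did not pass, and a difference between the cytosolic and mitochondrial sets was described and not tested.

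The median log2 difference was 0.21 for the 20 cytosolic genes and 0.03 for the 15 mitochondrial genes, against 0.00034 for all genes tested. Positive differences were found in 12 of the 20 cytosolic genes, in 10 of the 15 mitochondrial genes and in 50.1% of all genes. These differences are on the log2(FPKM + 0.5) scale, diabetic minus control, where FPKM is a fragment count corrected for gene length and sequencing depth. The groups did not overlap, with every diabetic value above every control value, in 9 of the 20 cytosolic genes, and this held for 12.7% of all genes. With every diabetic value below every control value there were 2 cytosolic genes (Farsa and Kars) and 1 mitochondrial gene (Yars2), against 13.6% of all genes. Among the 7660 genes with a mean of 10 FPKM or more, a range that holds all 20 cytosolic synthetases, 8.51% were higher and 18.2% lower at an unadjusted p below 0.05, 39.3% had a positive difference and the median was -0.06. Among the 4727 genes with a mean of 20 FPKM or more, 6.71% were higher and 23.4% lower at that p, so that lower counts among abundant genes stand against a larger share than over all genes. When each library was rescaled to TPM, the median of all genes moved to 0.13 and the genes at an unadjusted p below 0.05 split into 3009 higher and 692 lower, in place of 1498 higher and 1757 lower. The cytosolic median was then 0.35 and the mitochondrial one 0.17.

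**Figure D1:**
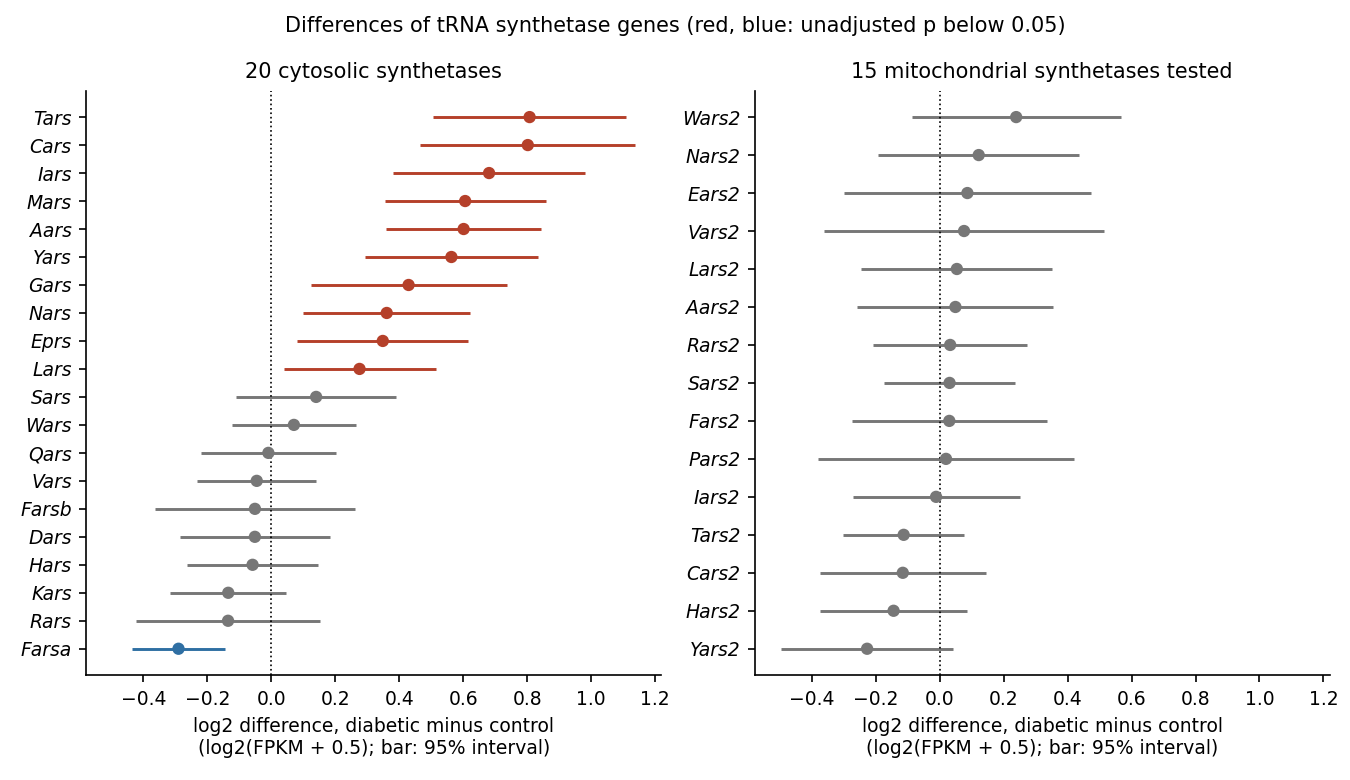
Log2 difference of each tested synthetase gene, diabetic minus control, on the log2(FPKM + 0.5) scale, with 95% intervals from limma; the dotted line is the median of all genes, red and blue mark an unadjusted p below 0.05. The red points are 10 cytosolic genes between 0.28 and 0.81, and the intervals of all 15 mitochondrial genes include 0.

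The libraries held between 12417686 and 19115426 fragments, rebuilt from the deposited values, and the cytosolic members had at least 496 fragments in every library. The retinal identity was checked with the rod genes Sag, Gnat1, Pde6a, Pde6b, Cnga1, Rcvrn and Nrl, whose summed level was 12158 to 14196 FPKM in diabetic libraries and 16439.9 to 16972 FPKM in control libraries. Of these 7 genes, 5 were lower without overlap between the groups. Over all genes tested, 13.6% were lower and 12.7% were higher without overlap. In bulk tissue, fewer cells of a type and less RNA per cell cannot be told apart. The 4 amacrine genes summed to 160.4 to 185.7 FPKM in diabetic and 147.3 to 164.0 FPKM in control libraries, and 2 of them were higher without overlap. Lens genes summed to 8.53 to 42.9 FPKM in diabetic and 9.93 to 341 FPKM in control libraries, with the highest value in control 3. Pigment epithelium genes summed to 35.3 to 85.0 FPKM in diabetic and 36.5 to 81.9 FPKM in control libraries. Among the microglia genes, 1 of 5 was lower without overlap and 0 were higher. Beside the 13.6% of all genes that were lower in this way, that count says little about microglia. Their sums ran from 9.86 to 14.2 FPKM in diabetic and from 12.1 to 21.0 FPKM in control libraries. The blood genes Hbb and Alas2 stayed below 0.5 FPKM in every library. The part of these cell types in the synthetase differences was not tested.

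Among the cytosolic genes outside the complex, Tars, the threonyl enzyme, had the largest log2 difference. It measured 33.9, 24.8 and 33.1 FPKM in diabetic 1, 2 and 3, against 17.8, 16.5 and 17.05 FPKM in control 1, 2 and 3. Its lowest diabetic value stood well above its highest control value, and the log2 difference was 0.81 with a standard error of 0.13 (adjusted p = 0.127, limma). Cars, the cysteinyl enzyme, was at 40.4, 28.8 and 40.5 FPKM in diabetic and at 20.4, 22.0 and 19.2 FPKM in control libraries. The groups were again apart, by a log2 difference of 0.80 ± 0.14 (standard error; adjusted p = 0.127, limma). The files place Tars (ENSRNOG00000019023) on chromosome 2 from 61394770 to 61414102 and Cars (ENSRNOG00000020651) on chromosome 1 from 216759366 to 216801656, each on the minus strand. The sources used here do not name the build of these coordinates.

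Aars, the alanyl enzyme and the most abundant synthetase in both groups, averaged 130.2 ± 17.0 FPKM in diabetic and 85.2 ± 1.94 FPKM in control retina (SD, n = 3 each). Its libraries were at 131.3, 112.8 and 146.6 FPKM in the diabetic group and at 83.6, 87.4 and 84.6 FPKM in the control group. The control libraries lay within a few FPKM of each other while the diabetic libraries were spread widely, and the log2 difference was 0.60 with a 95% interval from 0.36 to 0.84. Yars, the tyrosyl enzyme, was at 60.5, 45.5 and 56.6 FPKM in diabetic and 37.7, 37.0 and 34.2 FPKM in control libraries (log2 difference 0.56). Gars, the glycyl enzyme of cytosol and mitochondria, was at 48.8, 39.0 and 55.2 FPKM in diabetic and 37.0, 34.9 and 32.9 FPKM in control libraries (log2 difference 0.43). In these genes the groups did not overlap, and for Gars the lowest diabetic value was close to the highest control value. Nars, the asparaginyl enzyme, was at 94.2, 74.7 and 94.9 FPKM in diabetic and 65.4, 73.1 and 65.6 FPKM in control libraries. Diabetic 2 stood just above control 2, and its log2 difference of 0.36 had an interval from 0.10 to 0.62.

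**Figure D2:**
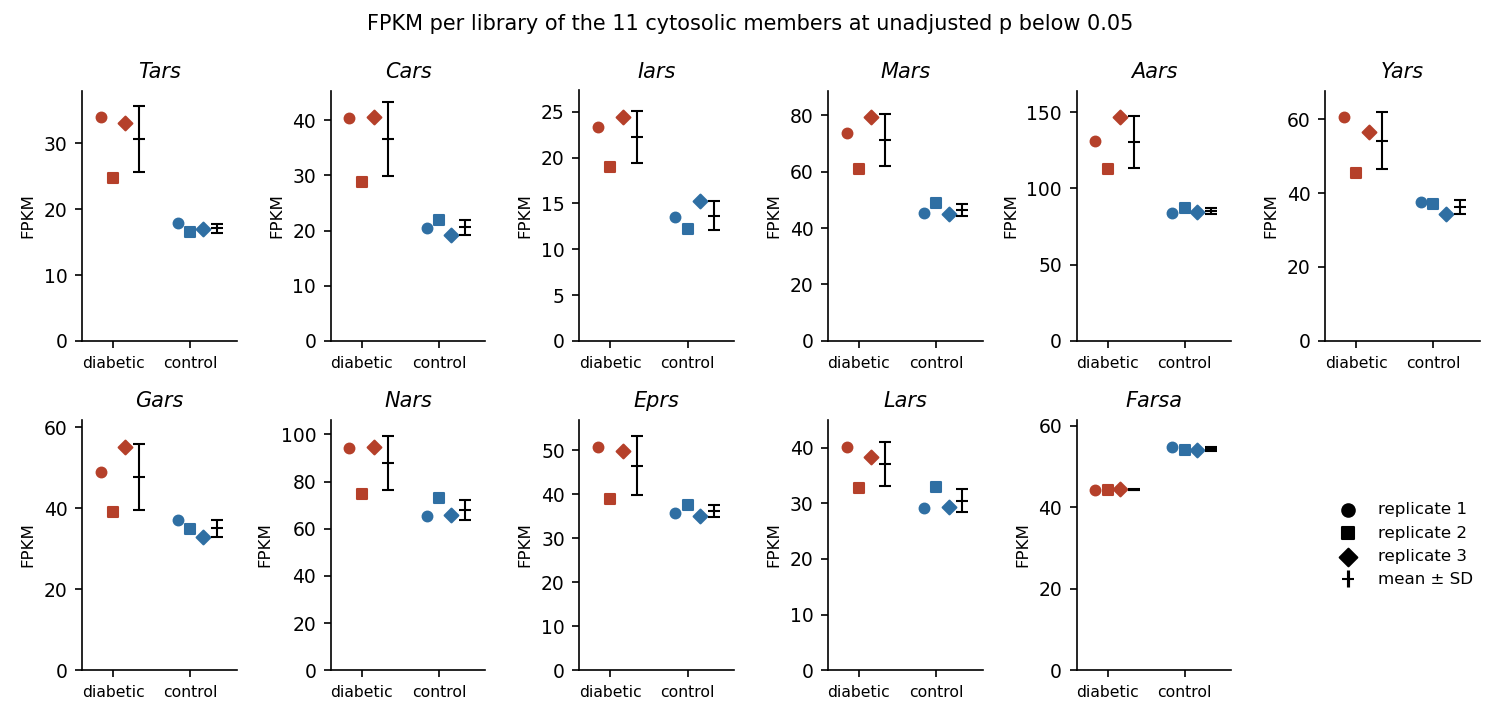
FPKM in each library of the 11 cytosolic synthetase genes with an unadjusted p below 0.05, diabetic (red) left of control (blue), with marker shapes for the replicate number and bars for the mean ± SD (n = 3). In the 10 higher genes the square, diabetic 2, is the lowest diabetic library, and in Farsa the diabetic values near 44 FPKM lie below the control values near 54 FPKM.

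Within the multisynthetase complex the enzymes did not move as 1 group. Of its 8 enzyme genes, 4 were higher at an unadjusted p below 0.05 and 4 had negative differences between -0.14 and -0.01. Over all genes tested, 9.15% were higher at that p and 50.1% had a positive difference. The 12 cytosolic genes outside the complex were also mixed, with 6 higher at that p and 4 with negative differences. Iars, the isoleucyl enzyme, was at 23.4, 19.0 and 24.4 FPKM in diabetic and 13.6, 12.2 and 15.3 FPKM in control libraries, a log2 difference of 0.68 with an interval from 0.38 to 0.98. Mars, the methionyl enzyme, whose activity also supplies the initiator tRNA, was at 73.5, 61.1 and 79.2 FPKM in diabetic and 45.3, 48.9 and 45.1 FPKM in control libraries (log2 difference 0.61, interval from 0.35 to 0.86). For Iars and Mars every diabetic library was above every control library. The neighbouring gene Ddit3 overlaps Mars by 72 nt on the opposite strand and averaged 85.9 FPKM in diabetic and 73.3 FPKM in control retina. Without strand, reads in that stretch cannot be told apart.

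Eprs was at 50.9, 38.9 and 49.8 FPKM in diabetic and 35.8, 37.7 and 35.2 FPKM in control libraries, with diabetic 2 just above the highest control library (log2 difference 0.35, interval from 0.08 to 0.62). Lars, the leucyl enzyme, which in mammals is also known as a leucine sensor for growth signalling, was at 40.2, 32.7 and 38.4 FPKM in diabetic and 29.1, 32.9 and 29.4 FPKM in control libraries. Its groups overlapped, since diabetic 2 lay below control 2 (log2 difference 0.28, interval from 0.04 to 0.51). Kars, the lysyl enzyme, averaged 41.7 ± 3.00 FPKM in diabetic and 45.7 ± 0.417 FPKM in control retina (SD, n = 3 each), with a log2 difference of -0.13 and an interval from -0.32 to 0.05. Qars (glutaminyl, -0.01), Dars (aspartyl, -0.05) and Rars (arginyl, -0.14) had intervals that include 0, from -0.42 at the lowest to 0.20 at the highest. The log2 differences of the 3 scaffold genes were -0.20 for Aimp1, -0.19 for Aimp2 and -0.22 for Eef1e1, and 0 of them were called or reached an unadjusted p below 0.05.

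Farsa, the catalytic alpha subunit of the phenylalanyl enzyme, was at 44.4, 44.3 and 44.4 FPKM in diabetic and 54.9, 54.0 and 54.1 FPKM in control libraries. The spread within either group was under 1 FPKM, and the log2 difference was -0.29 with an interval from -0.44 to -0.15 (adjusted p = 0.129, limma). Its partner Farsb, the beta subunit, was at 22.5, 18.6 and 19.5 FPKM in diabetic and 22.5, 23.2 and 17.4 FPKM in control libraries, so that the groups overlapped (log2 difference -0.05, interval from -0.36 to 0.26). Under TPM the difference of Farsa kept its sign but no longer had an unadjusted p below 0.05. The remaining free enzymes Sars (seryl, 0.14), Wars (tryptophanyl, 0.07), Vars (valyl, -0.05) and Hars (histidyl, -0.06) overlapped between the groups. The synthetases fall into 2 structural classes with unrelated catalytic folds. Of the class I cytosolic genes, 6 of 10 were higher and 0 were lower at an unadjusted p below 0.05. Of the class II genes, 4 of 10 were higher and 1, Farsa, was lower. Over all genes tested 9.15% were higher and 10.7% were lower, and a difference between the classes was not tested.

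Among the diabetic animals, diabetic 2 was the lowest library in 10 of the 10 higher genes, while the highest was diabetic 1 or diabetic 3 depending on the gene. Over all 1498 genes higher at the same unadjusted p, diabetic 2 was the lowest diabetic library in 25.2%. The median log2 difference of the 10 higher synthetases from the control mean was 0.64, 0.36 and 0.71 in diabetic 1, 2 and 3. Over all 20 cytosolic genes that median was 0.30, 0.09 and 0.26 in diabetic 1, 2 and 3, against -0.0049, 0.04 and -0.04 in control 1, 2 and 3. The 20 genes summed to 948, 802 and 959 FPKM in diabetic 1, 2 and 3, against 744, 766 and 712 FPKM in control 1, 2 and 3. The sums were thus apart between the groups, with diabetic 2 nearest to the control libraries. When 1 library was left out at a time, between 7 and 10 of the cytosolic genes were higher at an unadjusted p below 0.05. Tars, Cars, Iars, Mars, Aars, Yars and Gars stayed below that p under all 19 alternatives tried, Nars under 18, Eprs under 16 and Lars under 12.

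The promoters of the cytosolic genes were searched for the C/EBP-ATF response element, a composite site at which ATF4 is known to bind, in the form TGATGCAA on either strand (TTGCATCA when read on the other strand). The windows run from 250 bases before to 50 bases after the start that RefSeq gives in the GRCr8 build, and 17 of the 20 cytosolic and 16 of the 16 mitochondrial genes matched the table. Rars, Dars and Gars did not. A match was present in 7 of the 17 cytosolic genes (41.2%), in 0 of the 16 mitochondrial genes, and in 204 of 27457 promoters of all genes (0.743%). The 7 genes were Tars, Cars, Iars, Mars, Aars, Yars and Nars. Parts of these promoters are printed here, 5′ to 3′ on the strand of the gene, with the match in capitals. They are shown because the search selected these 7 genes by that match.
Tars: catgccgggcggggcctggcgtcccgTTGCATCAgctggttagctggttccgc
Cars: cgccgcggTTGCATCAgattctgg
Iars: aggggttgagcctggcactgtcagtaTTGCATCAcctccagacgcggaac
Mars: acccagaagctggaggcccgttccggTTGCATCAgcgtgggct
Aars: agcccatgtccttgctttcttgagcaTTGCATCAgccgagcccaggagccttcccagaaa
Yars: agctcagcTGATGCAAcctg
Nars: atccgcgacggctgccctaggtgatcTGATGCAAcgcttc

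In GRCr8 these windows lie at chr2:62114803-62114855 (minus strand) for Tars, chr1:208225337-208225360 (minus) for Cars, chr17:15193653-15193702 (minus) for Iars and chr7:65023754-65023796 (minus) for Mars. Those of Aars, Yars and Nars are at chr19:55908344-55908403 (plus), chr5:146820193-146820212 (plus) and chr18:60275783-60275822 (minus). Counting the base before the start as -1 and the first transcribed base as 1, the match began at -27 in Tars, -24 in Iars, -17 in Mars, -14 in Nars, -112 in Aars, 18 in Cars and 39 in Yars. In 6 of these genes it therefore lay close to the annotated start, and in Aars it lay further upstream.

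Set beside expression, the 7 genes with a match were all among the 10 higher genes, with log2 differences between 0.36 and 0.81 and a median of 0.61. The 10 cytosolic genes with a promoter and no match ranged from -0.29 to 0.35 with a median of -0.03, and 2 of them, Eprs and Lars, were among the higher genes. Gars, the tenth of the higher genes, has no promoter in the table. The wider form TGATGNAA, which contains TGATGCAA, was found in the promoters of the same 7 cytosolic genes and in 3.84% of all promoters. The E-box CACGTG was in 5 of the 17 cytosolic promoters (Iars, Aars, Farsb, Tars and Vars), in 1 of the 16 mitochondrial ones (Ears2) and in 6.63% of all promoters. A match states only that these letters occur in the window, and the lack of one does not exclude a site of another form or outside the window. No test of the motif against expression was made, and binding was not measured.

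**Figure D3:**
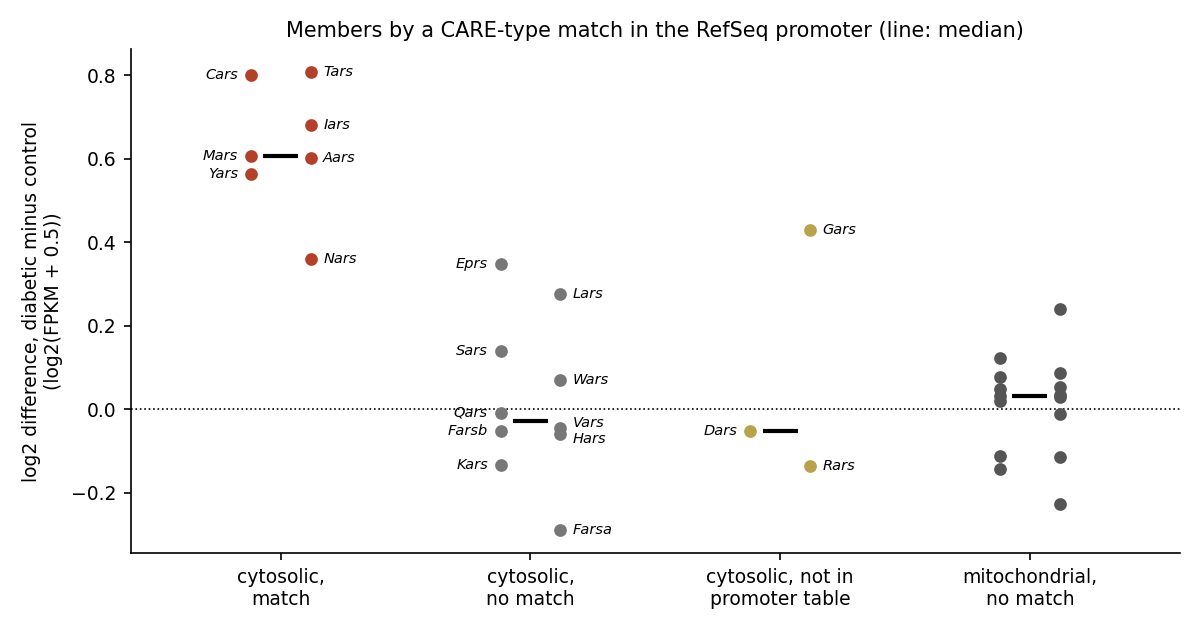
Log2 difference, diabetic minus control on the log2(FPKM + 0.5) scale, of cytosolic genes with and without a match to the C/EBP-ATF response element (CARE) in the RefSeq promoter, of cytosolic genes not in the promoter table, and of tested mitochondrial genes; short bars are medians and the dotted line is the median of all genes. The 7 genes with a match lie between 0.36 and 0.81, and the 15 mitochondrial genes between -0.23 and 0.24.

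The 16 mitochondrial synthetases summed to between 172 and 179 FPKM in diabetic libraries and between 179 and 181 FPKM in control libraries. The threonyl enzyme gene Tars2 was the most abundant, at 29.5, 33.3 and 28.8 FPKM in diabetic and 33.2, 33.3 and 32.4 FPKM in control libraries, where the groups overlapped. In control retina Tars2, Cars2, Hars2 and Iars2 averaged 33.0, 27.0, 23.4 and 17.6 FPKM, above the cytosolic Tars, Wars and Iars at 17.1, 15.7 and 13.7 FPKM. The smallest unadjusted p belonged to the tyrosyl gene Yars2, at 8.94, 8.08 and 6.94 FPKM in diabetic and 9.01, 9.58 and 9.58 FPKM in control libraries. All its diabetic values were lower, the highest by a narrow margin, and the log2 difference was -0.23 with an interval from -0.50 to 0.04 (adjusted p = 0.319, limma). The tryptophanyl gene Wars2 came next, at 5.68, 5.46 and 6.37 FPKM in diabetic and 5.52, 5.06 and 4.10 FPKM in control libraries. Its groups overlapped, with a log2 difference of 0.24 and an interval from -0.09 to 0.57.

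For the other mitochondrial genes the log2 differences lay between -0.14 (Hars2) and 0.12 (Nars2). They were -0.12 for Cars2, -0.11 for Tars2, -0.01 for Iars2, 0.02 for Pars2, 0.03 each for Fars2, Rars2 and Sars2, 0.05 each for Aars2 and Lars2, 0.08 for Vars2 and 0.09 for Ears2. Among the diabetic libraries Vars2, the valyl gene, varied most, from 9.85 FPKM in diabetic 1 to 17.0 FPKM in diabetic 3. Interval bounds of the 15 genes reached from -0.50 to 0.57, and the differences seen in Nars and Eprs lie inside the intervals of several of them. Mars2 was the 1 member below the filter of a mean of 0.5 FPKM, with between 3 and 9 fragments per library. It was at 0.239, 0.101 and 0.150 FPKM in diabetic and 0.2999, 0.235 and 0.177 FPKM in control libraries, and a similar gene, LOC100911305, described as methionine tRNA ligase, mitochondrial-like, was listed at 0 in all 6. The treatment of reads that fit more than 1 such gene is not stated in the labels.

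Enzymes for the same amino acid could be set side by side in 15 pairs of a cytosolic and a tested mitochondrial gene, where Eprs entered with Ears2 and with Pars2. The cytosolic gene had the larger log2 difference in 11 of 15 pairs. The log2 ratio of the cytosolic to the mitochondrial gene was higher in every diabetic than in every control library in 8 pairs, lower in 2 and overlapping in 5. The cytosolic genes of these 8 pairs are all among the higher genes named above, and Eprs enters in 2 of them. The count therefore repeats that result in part. The share of such ratios over all pairs of genes was not computed. For Tars over Tars2 it was 0.20, -0.42 and 0.20 in diabetic 1, 2 and 3, against -0.88, -0.99 and -0.91 in control 1, 2 and 3. In diabetic 1 and 3, but in no control library, the cytosolic message was therefore the more abundant of the pair per length. Cars over Cars2 showed the same reversal of order, at 0.75, 0.17 and 0.69 in diabetic and -0.55, -0.34 and -0.25 in control libraries. Iars over Iars2 was at 0.27, 0.31 and 0.44 in diabetic and -0.34, -0.42 and -0.30 in control libraries. The pairs lower in diabetic retina were Farsa over Fars2 and Rars over Rars2. Hars and Hars2 lie 97 nt apart on opposite strands of chromosome 18, and their log2 differences were -0.06 and -0.14.

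**Figure D4:**
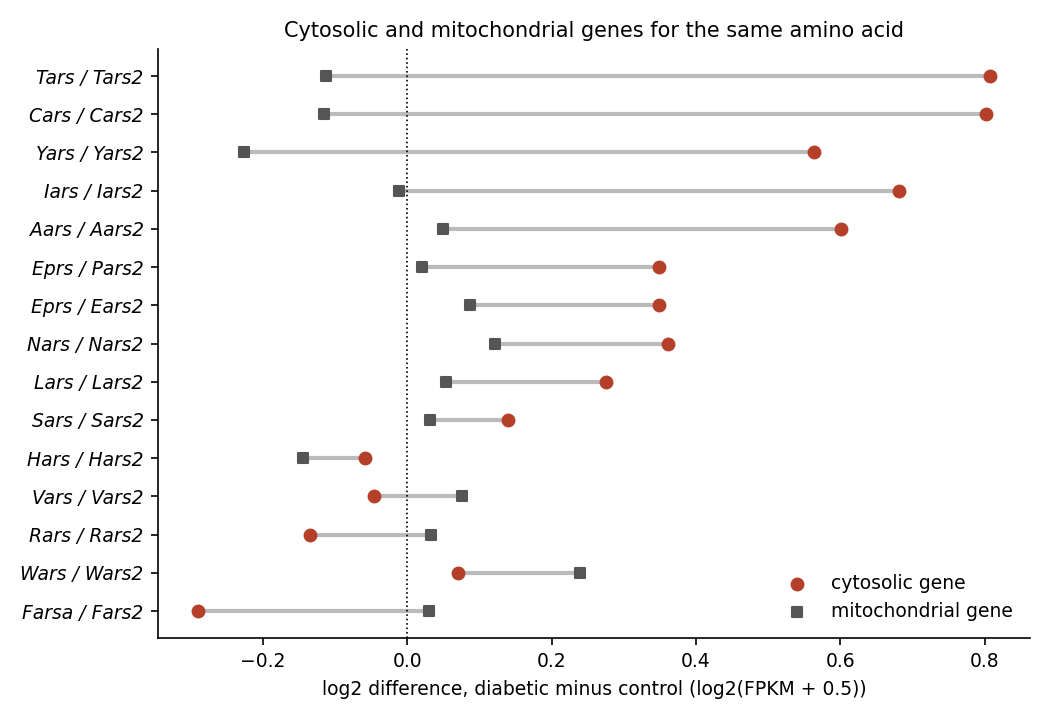
Log2 differences, diabetic minus control on the log2(FPKM + 0.5) scale, of the cytosolic (red circles) and mitochondrial (grey squares) gene for the same amino acid in 15 pairs, sorted by their distance; the dotted line is the median of all genes. The cytosolic gene lies to the right in 11 of 15 pairs, with the longest distances in Tars, Cars and Yars.

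Gene length differed between the higher and the other cytosolic genes. The 10 higher cytosolic genes had lengths from 2368 to 5751 nt with a median of 3060 nt, and the other 10 from 1793 to 4210 nt with a median of 2150.5 nt. With the length trend of each library removed, 8 of the cytosolic genes were higher at an unadjusted p below 0.05, without Eprs and Lars, the cytosolic median was 0.19, and Farsa was lower. The part of length in the result was not otherwise tested, and the differences of the further genes below are given without that correction.

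Other genes of tRNA charging were described by the same counts, and their difference from the synthetases was not tested. Over all genes tested, 9.15% were higher and 10.7% were lower at an unadjusted p below 0.05. Of 7 synthetase-like and proofreading genes, 0 were higher and 2 were lower at an unadjusted p below 0.05, with a median log2 difference of -0.08. These were Aarsd1, a free-standing editing factor for mischarged alanyl-tRNA, at 36.5, 40.7 and 39.1 FPKM in diabetic and 51.0, 49.5 and 47.8 FPKM in control libraries (log2 difference -0.35), and Prorsd1 (-0.53). Tarsl2, a further threonyl gene, and Pstk, a kinase of selenocysteine synthesis on tRNA, had log2 differences of 0.16 and -0.15, each with overlap. Of the 7 genes of tRNA maturation and delivery, 1 was higher and 5 were lower at that p, with a median of -0.27. The 5 lower genes have means above 20 FPKM, and of all genes at that level 23.4% were lower, with a median of -0.09. The higher one was Xpot, the nuclear export receptor of tRNA, at 21.8, 21.3 and 22.8 FPKM in diabetic and 16.3, 16.8 and 19.8 FPKM in control libraries. The lower ones encode the elongation factor that carries charged tRNA to the ribosome and its exchange factor subunits, with log2 differences of -0.33 for Eef1a1, -0.27 for Eef1a2, -0.39 for Eef1b2, -0.28 for Eef1d and -0.23 for Eef1g. Genes such as Eef1a1 have many processed copies in the genome, among which reads could be split.

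In mitochondria, glutaminyl-tRNA is made by an amidotransferase instead of a synthetase of its own. Its subunit genes Gatb and Gatc had log2 differences of -0.24 and -0.23 and were lower at an unadjusted p below 0.05, and Qrsl1 (-0.12) and the formyltransferase gene Mtfmt (0.11) were not. Gatc overlaps the far more abundant Cox6a1 over 3054 nt on the same strand, which averaged 354 FPKM in diabetic and 483 FPKM in control retina, and is listed on a further row of 1.87 FPKM, so its value is uncertain. Of the 9 mitochondrial translation factor genes, 0 were higher and 0 were lower at that p, and their median was -0.05. Over all genes tested, 9.15% were higher and 10.7% were lower. The largest difference among these was that of the elongation factor gene Gfm2 (0.33, with overlap).

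Of the 16 genes of the GCN2 branch and eIF2, 1 was higher (6.25%) and 3 were lower (18.75%) at an unadjusted p below 0.05. Over all genes tested these shares were 9.15% and 10.7%, so the counts were near those of all genes. The median log2 difference of the 16 genes was -0.07. Eif2ak4, which encodes GCN2, the kinase that binds uncharged tRNA, was at 8.84, 8.51 and 8.40 FPKM in diabetic and 6.33, 6.99 and 7.07 FPKM in control libraries. The groups were apart, by a log2 difference of 0.32 with an interval from 0.09 to 0.54 (adjusted p = 0.163, limma). At 8976 nt Eif2ak4 is longer than every synthetase gene here, and the part of length in its difference was not tested. Gcn1, the gene of the GCN2 coactivator, overlapped between the groups (0.09). The lower ones were the eIF2B subunit genes Eif2b2 (-0.44) and Eif2b4 (-0.35) and Ppp1r15a (-0.52), whose product directs dephosphorylation of eIF2.

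In the list of ATF4 and amino acid response genes, 15 of 28 tested were higher (53.6%) and 1, Ddit4, was lower (3.57%) at an unadjusted p below 0.05. Over all genes tested these shares were 9.15% and 10.7%. The median log2 difference of the list was 0.40, and 0 were called. This list and its direction were known from earlier results of these data and are given as context for the synthetases. The transcript of Atf4 itself was at 417.8, 399.7 and 471.1 FPKM in diabetic and 410.7, 519.1 and 471.7 FPKM in control libraries, where the groups overlapped. Asns, the asparagine synthetase, was at 46.6, 35.7 and 53.8 FPKM in diabetic and 15.2, 17.7 and 16.8 FPKM in control libraries, and like the higher synthetases it was lowest of the diabetic libraries in diabetic 2. That library was the lowest diabetic one in 11 of the 15 higher genes of the list. The other genes of smallest unadjusted p were Slc1a4 (log2 difference 1.42) and Slc38a2 (0.86), amino acid transporters, and Sesn2 (1.26), a regulator of growth signalling. The TGATGCAA match was present in 4 of the 25 promoters of this list found in the table (16%), those of Chac1, Nupr1, Pycr1 and Slc1a4. Of these, Nupr1 was below the filter on low values and was not tested. Asns, Sesn2 and Slc38a2 had neither this match nor the wider form TGATGNAA, so genes with large differences were also found without a match.

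**Figure D5:**
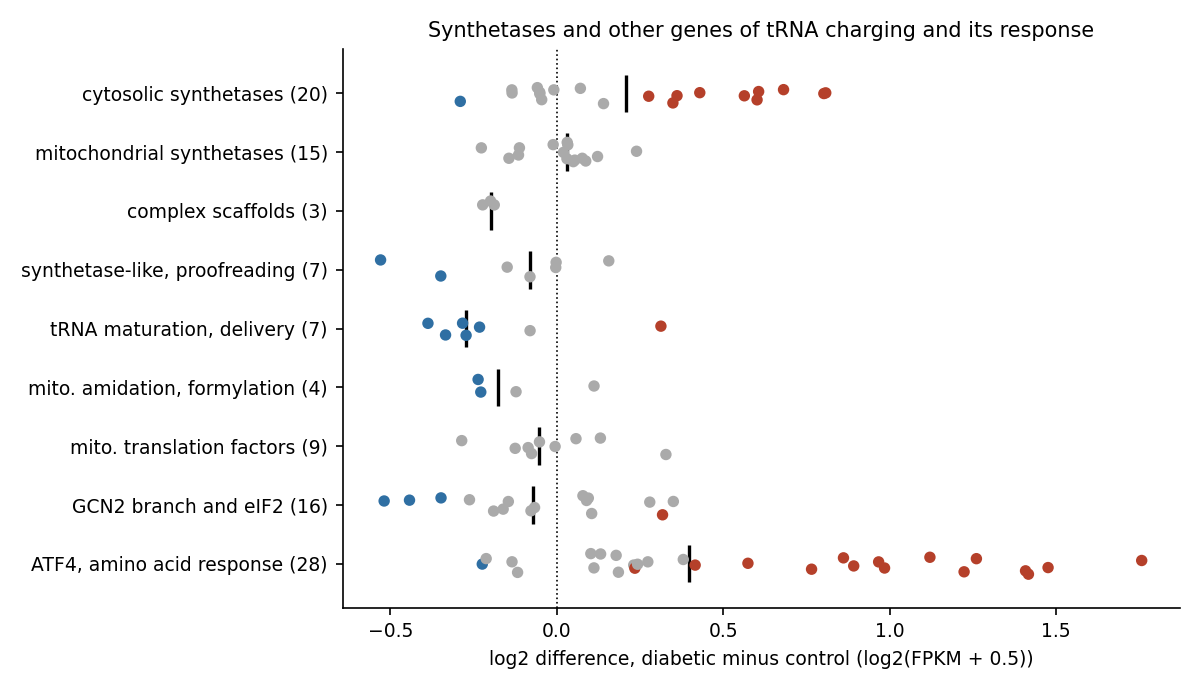
Log2 differences, diabetic minus control on the log2(FPKM + 0.5) scale, of the tested genes in the synthetase sets and in 7 further lists, with the number of tested genes in brackets; bars are medians, the dotted line is the median of all genes, and red and blue mark an unadjusted p below 0.05 in the higher and lower direction. The medians are 0.21 for cytosolic synthetases, 0.03 for mitochondrial synthetases, -0.27 for tRNA maturation and delivery and 0.40 for ATF4 and amino acid response genes.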

How the data were processed

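Poly-A RNA from the retinas of 6 rats was sequenced from both fragment ends. The labels' protocols mention no strand marking. The submitters' processing notes name HISAT2 2.0.5 as the aligner. The sources used here name no counting tool, genome build or annotation. The authors deposited 1 table of FPKM beside each gene's length and position, per the file headers. FPKM times gene length gave whole multiples of 1 step per library, within 0.05 of a whole fragment for 100% of values, and the rebuilt fragments served for depth, TMM scaling and voom.

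A mean of 0.5 FPKM or more over the 6 libraries was required of a gene. The test was limma (version 3.58.1, R version 4.3.3) on log2(FPKM + 0.5), fitted to group alone, two-sided, with an intensity trend in eBayes and Benjamini-Hochberg adjustment over all 16363 genes, at a threshold of 0.05. The p-values rest on the spread between the 3 separately weighed rats per group. Intervals rest on that same spread, which holds the counting error of the fragments along with differences between rats. The eBayes step draws the spread of each gene toward the trend over all genes. Every pair of libraries differed by more than sampling noise, the closest with a chi-square of 10.0 for each degree of freedom. The members, the lists and the rule for named genes were chosen with earlier results of these data known. The rule gives values in every library for members at an unadjusted p below 0.05, or otherwise for the 2 of smallest p in their class, and in each other list for up to 4 genes of smallest p plus Eif2ak4, Gcn1, Atf4 and the scaffold genes. Genes named beyond this rule were chosen after their values were seen. Replicate numbers did not pair the libraries. The method was tested on simulated counts over 16362 genes, drawn from the mean levels and library sizes of the diabetic and control libraries. The spread between replicates was set alike for every gene and was not estimated from these libraries. The method recovered 4% of 1.5-fold changes, 46% of 2-fold changes and 96% of 4-fold changes, and 7 of its 82 calls were false. These shares hold for that setting and do not give the power in these libraries. Promoters are those of RefSeq in GRCr8, and no coordinates were converted between builds. Figures were drawn with matplotlib 3.10.9. RNA methylation was not analysed here, and 1 listed gene each of the rod and synthetase-like lists is not reported here. Alternatives covered the pseudocount, filters, scaling, length, limma settings, a replicate block and each library left out.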

Additional observations from a re-analysis of the deposited data

How the results depend on the processing

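Genes called over all genes numbered 2 with voom on the rebuilt fragments (Asns and Smarcd1) and between 0 and 4 when 1 library was left out (4 when diabetic 1 was left out, and 1 each for control 2 and diabetic 2), and no synthetase was among them. The genes at an unadjusted p below 0.05 were between 2073 and 4010 with 1 library left out, with 2073 without diabetic 2. The cytosolic median log2 difference was 0.35 with TPM, 0.30 under quantile normalization and between 0.15 and 0.28 with 1 library left out. The mitochondrial median was 0.17 with TPM, -0.0094 under quantile normalization, -0.0081 with the length trend removed and between -0.025 and 0.044 with 1 library left out. With TPM, 0 cytosolic genes were lower and 1 mitochondrial gene, Wars2, was higher at an unadjusted p below 0.05. Under quantile normalization 1 mitochondrial gene, Yars2, was lower, and with 1 library left out between 0 and 1 were. TPM divides each library by its FPKM sum, so it raised diabetic values relative to control ones. The sums were 476348, 467488 and 500107 in diabetic 1, 2 and 3, against 521710, 552093 and 514771 in control 1, 2 and 3. Why the sums differed, and the causes of the other changes, were not tested. The cytosolic genes higher at that p numbered between 7 and 11 over all alternatives. With the replicate block they numbered 9, and 2790 genes were at that p. Same-numbered libraries deviated with correlations of -0.05, -0.08 and 0.00061, so over all genes the numbers gave no sign of pairing. With 3 libraries per group this cannot exclude it, and the gene LOC103690033, described below, was low in replicate 3 of both groups. Among cytosolic genes the sign of Qars, Kars, Dars, Farsb, Hars and Vars changed under at least 1 alternative. Depth limits Mars2, Pars2 and Ears2 most, with at most 120 fragments in any library.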

Other observations

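The table holds a further gene, LOC103690033, described as isoleucine tRNA ligase, cytoplasmic-like, on chromosome 17, the chromosome of Iars. It was at 5.73, 4.71 and 0.634 FPKM in diabetic 1, 2 and 3, against 6.40, 6.82 and 0.675 FPKM in control 1, 2 and 3. The libraries of replicate 3 in both groups were thus low by a wide margin. Iars itself was highest in replicate 3 of both groups, at 24.4 FPKM in diabetic 3 and 15.3 FPKM in control 3, opposite to LOC103690033 in that replicate. Between diabetic 1 and 2 both genes were lower in diabetic 2, with Iars at 23.4 and 19.0 FPKM. Between control 1 and 2 they differed in direction, with Iars at 13.6 and 12.2 FPKM. Whether reads are shared between LOC103690033 and Iars was not tested. Iars was higher at an unadjusted p below 0.05 under all 19 alternatives, in a range of log2 differences from 0.54 to 0.83. A glutamine tRNA ligase-like gene, LOC100911132, was listed at 0 in all 6 libraries.

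The order of abundance among synthetases also differed between the groups. Cars stood at rank 12 of 36 in diabetic retina and at rank 19 in control retina, while Farsa stood at rank 8 in diabetic and at rank 4 in control retina. Aars was first in both groups. At the low end, Pars2 averaged 1.23 ± 0.0452 FPKM in diabetic and 1.21 ± 0.0654 FPKM in control retina (SD, n = 3 each). Rars2 overlaps Slc35a1 by 7544 nt on the opposite strand, which averaged 9.94 FPKM in diabetic and 10.5 FPKM in control retina, and reads in that stretch cannot be told apart without strand.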
